A study of Canis lupus familiaris with 18 samples.

Results

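DPP4, PI16, ANXA3, ICAM1, F3, CLEC11A, PDGFRA, CD34, THY1 and ISLR are 10 genes whose transcripts mark fibroblast-like stromal cells of fat and the progenitors among them. They were chosen by name, as every probe set of a canine Affymetrix expression array that carried one of these symbols and no other. That gave 17 probe sets for 10 genes, out of 42924 probe sets and 15115 singly named genes, and 17 of the 17 passed the filter on low values. The expression values were on a log scale, read here as log2, so that a difference of 1 stands for a 2-fold change. Where 2 probe sets measured a gene, the brighter one stands for it, and the other is given where its call differs.

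Fat was sampled from 9 intact female Beagles aged 4 years, all eating the same commercial diet and all sampled after an overnight fast at 24 weeks. The ad libitum dogs (n = 5, dogs 2, 5, 6, 7 and 8) ate without restriction and are described as obese. The control dogs (n = 4, dogs 1, 3, 4 and 9) got rations that kept them at their initial weight and are described as lean. Each dog gave 1 gonadal and 1 subcutaneous sample, which makes 18 arrays in 4 groups, and the animals were assigned to feeding at random.

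Adipose tissue holds, besides adipocytes, a stroma in which mesenchymal progenitors give rise to new fat cells. In mouse subcutaneous fat, cells with Dpp4 and Pi16 form an interstitial progenitor pool that can give rise to Icam1-expressing committed preadipocytes and to stromal cells marked by F3, also called CD142, and Clec11a. PDGFRA, CD34 and THY1 are found more broadly on adipose stromal cells. Several of these genes are also used outside the stroma: DPP4 and THY1 by T cells in some species, and CD34 and ICAM1 by endothelium.

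The arrays differed little in general scale, with medians between 3.65 and 3.87 and between 47.2% and 49.0% of probe sets at log2 4 or more. No 2 arrays were identical. Adiponectin (ADIPOQ), the adipocyte hormone, and PECAM1, an endothelial adhesion molecule, did not pass the depot test, with gonadal minus subcutaneous differences of 0.45 ± 0.25 and -0.11 ± 0.20 (limma estimate ± SE, adjusted p = 0.226 and 0.766). A total of 4 arrays stood apart because they held transcripts of other tissues. Skeletal muscle genes exceeded their depot's median by 6.66 in the gonadal array of ad libitum dog 2, and by 6.15 and 6.23 in the subcutaneous arrays of control dogs 3 and 4. The array of control dog 4 also exceeded it by 3.05 for mesothelial and 2.85 for epithelial genes, and had the highest ciliated-epithelium level among the subcutaneous arrays. Ciliated-epithelium genes exceeded it by 3.88 in the gonadal array of ad libitum dog 6. The source of these transcripts, a mix-up of samples included, was not tested. Results that rest on these arrays are given with and without them. In whole tissue, fewer cells of a type and less RNA per cell cannot be told apart. Per the labels, an earlier deposit held the subcutaneous arrays but not the gonadal ones, and a batch that follows depot cannot be told apart from it either.

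The first question was how the markers differed between depots, with gonadal fat set against subcutaneous fat of the same dogs. DPP4, PI16 and ICAM1 were much lower in gonadal fat, by 10.6-fold, 11.8-fold and 5.17-fold averaged over the feeding groups, with 2.75-fold in the other ICAM1 probe set. CD34, THY1 and ISLR were lower by 2.09-fold, 2.10-fold and 1.90-fold, and PDGFRA, ANXA3, F3 and CLEC11A did not pass the test. In all, 6 of 10 genes were called lower and 0 higher at an adjusted p under 0.05 (limma, Benjamini-Hochberg over 21484 probe sets), where 16.6% of all tested probe sets were called in either direction, 8.84% were called lower and 7.76% higher. The median difference was -0.995 over the 10 genes and 0.02 over all tested probe sets. Without the 4 arrays that stood apart, 3 of 10 remained called, which were DPP4, PI16 and ICAM1. That fit had fewer arrays, so a lost call need not be particular to these genes. Of all tested probe sets, 3567 were called with all arrays and at least 2099 in every alternative fit.

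**Figure D1:**
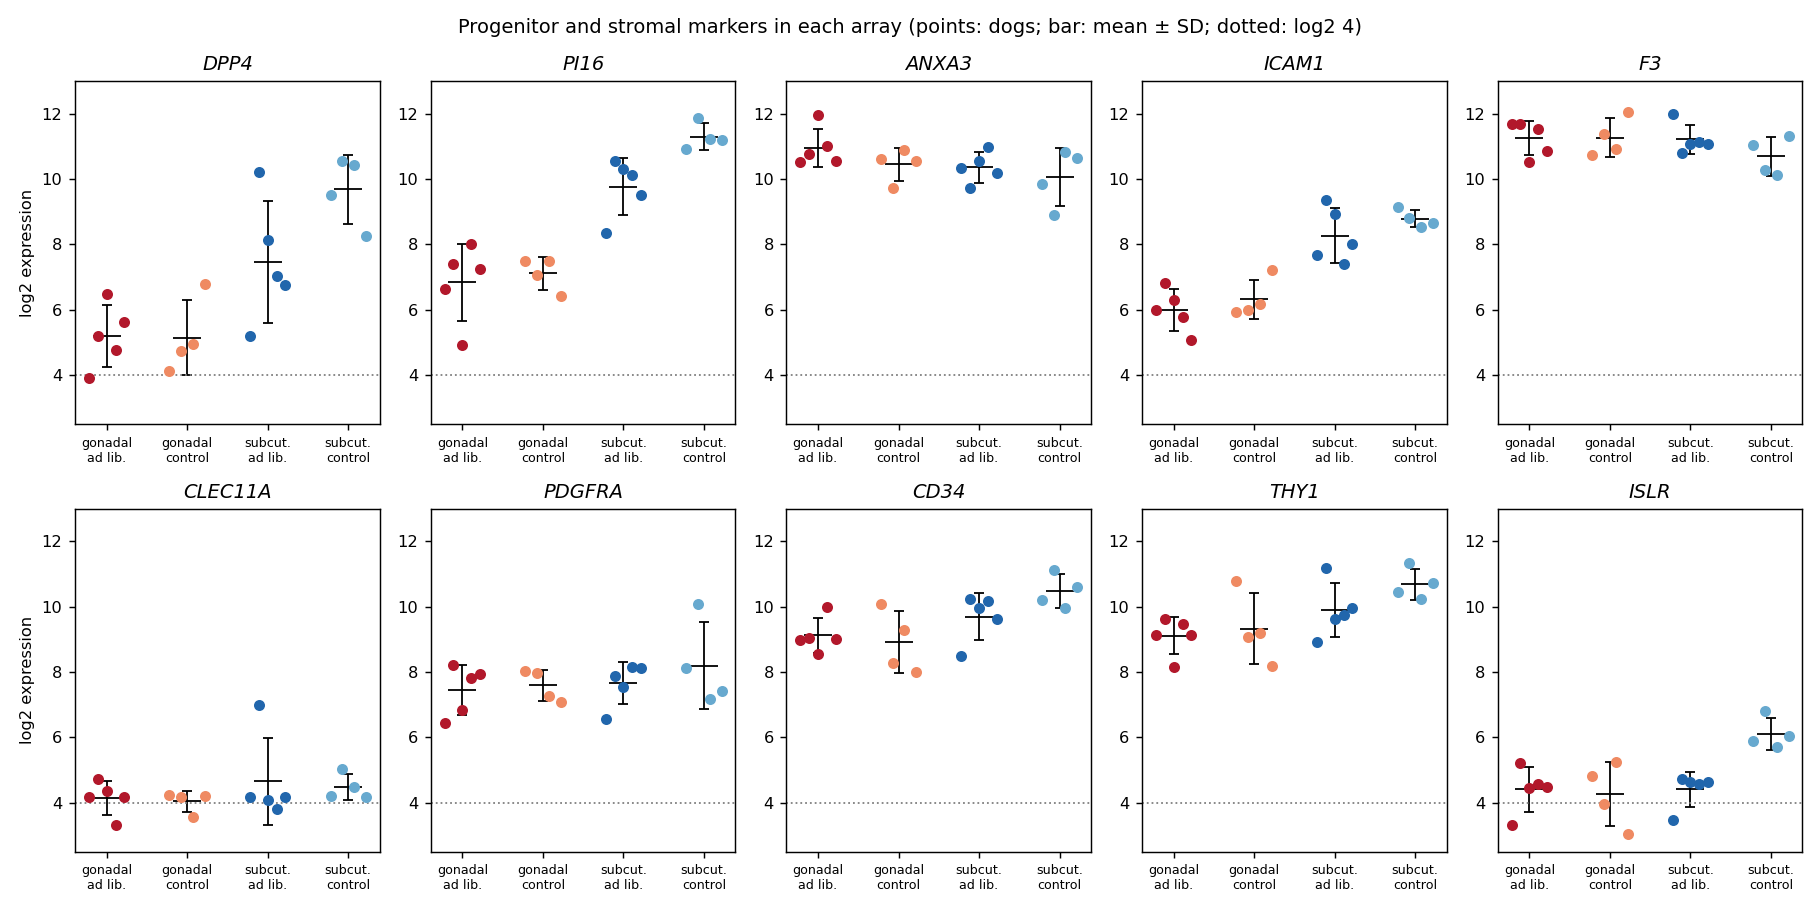
Log2 expression of each gene (y axis) in the gonadal ad libitum, gonadal control, subcutaneous ad libitum and subcutaneous control groups (x axis). Points are dogs, the bar is the mean with its SD, and the dotted line is log2 4. PI16 has its highest gonadal value, 8.00, under its lowest subcutaneous value, 8.36, while the depots overlap for PDGFRA, F3 and ANXA3.

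DPP4 encodes a membrane dipeptidyl peptidase that also trims incretin hormones, and in mouse it is the surface marker of interstitial progenitors. Its log2 values in gonadal fat were 3.91, 5.19, 6.49, 4.77 and 5.62 in ad libitum dogs and 4.13, 4.73, 4.96 and 6.77 in control dogs. In subcutaneous fat they were 5.19, 10.22, 8.12, 7.05 and 6.75 in ad libitum dogs and 9.50, 10.55, 10.44 and 8.26 in control dogs. Gonadal fat had no value above 6.77 in either feeding group, while subcutaneous fat ran from 5.19 to 10.22 in ad libitum dogs and from 8.26 to 10.55 in control dogs. The 2 depots overlapped because ad libitum dog 2 had only 5.19 in subcutaneous fat, yet within each dog the gonadal array was the lower one, by 1.12 to 5.82. Such a uniform direction in 9 of 9 dogs was seen in 5.23% of tested probe sets.

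The depot difference of DPP4 was -3.40 ± 0.58 over all dogs (95% interval -4.64 to -2.17, limma adjusted p = 0.00135), and it was also called without the 4 arrays that stood apart (adjusted p = 0.0156). In ad libitum dogs it was -2.27 ± 0.78 and did not pass (adjusted p = 0.0873), although the fit with dog as a random block put it at an adjusted p of 0.0498. In control dogs it was -4.54 ± 0.87, a 23.2-fold difference (adjusted p = 0.0116). That call was lost without those 4 arrays (-3.73, adjusted p = 0.11) and with the actin 3′ minus 5′ signal, a sign of RNA integrity, as a covariate (-3.02, adjusted p = 0.142). DPP4 stood at place 15 of 8656 genes when these were ordered from the most negative depot difference.

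PI16 encodes a secreted peptidase inhibitor found in fibroblasts of many tissues, and in mouse fat it accompanies Dpp4. Its gonadal values were 6.64, 7.41, 4.93, 8.00 and 7.25 in ad libitum dogs and 7.50, 7.05, 7.48 and 6.42 in control dogs. Its subcutaneous values were 8.36, 10.55, 10.31, 10.13 and 9.51 in ad libitum dogs and 10.91, 11.86, 11.23 and 11.20 in control dogs. No gonadal array reached any subcutaneous array, in either of its 2 probe sets. A complete separation with gonadal fat lower was seen in 1.02% of tested probe sets. The depot difference was -3.56 ± 0.37 over all dogs (95% interval -4.34 to -2.77, limma adjusted p = 1.9e-05), and PI16 stood at place 13 of 8656 genes ordered from the most negative depot difference. It was called in ad libitum dogs (-2.93 ± 0.50, adjusted p = 0.00271) and in control dogs (-4.19 ± 0.55, adjusted p = 0.00103), and without the 4 arrays that stood apart it was -3.08 over all dogs.

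ANXA3, an annexin that binds membrane phospholipids and accompanies Dpp4 in mouse progenitors, did not share this pattern. Its values ran between 9.72 and 11.95 in gonadal fat and between 8.89 and 10.99 in subcutaneous fat, and it was higher in the gonadal array of 8 of 9 dogs. The difference was 0.50 ± 0.28 over all dogs and did not pass (95% interval -0.09 to 1.08, limma adjusted p = 0.233). That interval leaves no room for a decrease of the size measured for DPP4 or PI16.

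ICAM1, the leukocyte adhesion receptor that marks committed preadipocytes in mouse, had gonadal values of 6.00, 6.83, 6.29, 5.77 and 5.09 in ad libitum dogs and 5.94, 5.98, 6.18 and 7.21 in control dogs. Its subcutaneous values were 7.67, 9.35, 8.92, 7.40 and 8.02 in ad libitum dogs and 9.15, 8.81, 8.53 and 8.65 in control dogs. The depots did not overlap in this probe set, as in 1.02% of tested probe sets with gonadal fat lower, and overlapped slightly in the other one. Over all dogs the difference was -2.37 ± 0.29 (95% interval -2.97 to -1.76, limma adjusted p = 7.52e-05). ICAM1 was lower in the gonadal array of 9 of 9 dogs, as were 5.23% of tested probe sets. The difference was called in ad libitum dogs (-2.28 ± 0.38, adjusted p = 0.00247) and in control dogs (-2.46 ± 0.43, adjusted p = 0.00572), and was -2.48 over all dogs without the 4 arrays that stood apart. In control dogs the call was lost without dog 1 or dog 3 (adjusted p = 0.0652 and 0.0569) and with the actin covariate (-1.87, adjusted p = 0.0873). The other probe set gave smaller differences, -1.46 ± 0.23 over all dogs, or 2.75-fold (adjusted p = 0.000847), and -1.15 ± 0.31 in ad libitum dogs (adjusted p = 0.0351).

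F3 encodes tissue factor, the starter of blood clotting, and CLEC11A a secreted lectin-like growth factor. F3 was measured at 10.52 to 12.07 in gonadal fat and 10.12 to 11.99 in subcutaneous fat, with a difference of 0.31 ± 0.24 over all dogs that did not pass (95% interval -0.20 to 0.82, limma adjusted p = 0.411). CLEC11A lay near the floor, at 3.32 to 4.73 in gonadal fat and 3.82 to 7.00 in subcutaneous fat. It reached log2 4 in 15 of 18 arrays and its difference of -0.47 ± 0.35 did not pass (adjusted p = 0.396). Its single high value, 7.00, came from the subcutaneous array of ad libitum dog 5.

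PDGFRA, the receptor for platelet-derived growth factors and a general mark of adipose stroma, had gonadal values of 6.43, 8.20, 6.84, 7.83 and 7.95 in ad libitum dogs and 8.03, 7.97, 7.27 and 7.09 in control dogs. Its subcutaneous values were 6.58, 7.88, 7.55, 8.15 and 8.13 in ad libitum dogs and 8.11, 10.10, 7.17 and 7.42 in control dogs. The depots covered nearly the same range apart from the 10.10 in the subcutaneous array of control dog 3, which held muscle transcripts. The subcutaneous array of control dog 4 and the gonadal array of ad libitum dog 2 held them too. PDGFRA was 7.17 and 6.43 there. The subcutaneous array of dog 3 also had the highest mean level of 14 general stromal genes, 12.94, among all arrays. Its mean level of 11 adipocyte genes, 9.50, was the lowest. What raised its PDGFRA value was not tested. The depot difference of PDGFRA was -0.41 ± 0.38 over all dogs (95% interval -1.20 to 0.38, limma adjusted p = 0.494) and turned to 0.08 without the 4 arrays that stood apart.

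CD34, a sialomucin of stromal and endothelial cells, averaged 9.03 ± 0.70 in gonadal fat and 10.04 ± 0.72 in subcutaneous fat (SD, n = 9 each). THY1, a surface glycoprotein of fibroblasts, averaged 9.20 ± 0.78 in gonadal fat and 10.24 ± 0.78 in subcutaneous fat (SD, n = 9 each). Both were called over all dogs, CD34 at -1.06 ± 0.31 (limma adjusted p = 0.0269) and THY1 at -1.07 ± 0.34 (adjusted p = 0.0412). The ranges overlapped widely, and CD34 was lower in the gonadal array of 8 of 9 dogs and THY1 in that of 7 of 9. The other CD34 probe set was lower in 9 of 9 dogs, by differences of -2.48 to -0.0035, as were 5.23% of tested probe sets. In the main probe sets neither call held without the 4 arrays that stood apart, where CD34 was -0.92 (adjusted p = 0.127) and THY1 -0.87 (adjusted p = 0.177). In control dogs alone the main CD34 probe set did not pass (-1.56 ± 0.46, adjusted p = 0.0741) while its other probe set did (-1.47 ± 0.26, adjusted p = 0.00679), and with dog as a random block the main one was called at an adjusted p of 0.0419.

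ISLR, a secreted leucine-rich repeat protein of mesenchymal cells, had gonadal values of 3.33, 5.23, 4.44, 4.57 and 4.48 in ad libitum dogs and 4.83, 3.95, 5.26 and 3.03 in control dogs. Its subcutaneous values were 3.47, 4.73, 4.65, 4.58 and 4.64 in ad libitum dogs and 5.88, 6.81, 5.71 and 6.04 in control dogs. The subcutaneous arrays of control dogs lay above all others, and the remaining 3 groups lay together between 3.03 and 5.26. Over all dogs the difference was -0.93 ± 0.31 (limma adjusted p = 0.0483). In ad libitum dogs it was -0.01 ± 0.41 (adjusted p = 0.995) and in control dogs -1.85 ± 0.46 (adjusted p = 0.0401). Without the 4 arrays that stood apart it was -0.67 over all dogs (adjusted p = 0.208) and -1.69 in control dogs (adjusted p = 0.135).

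**Figure D2:**
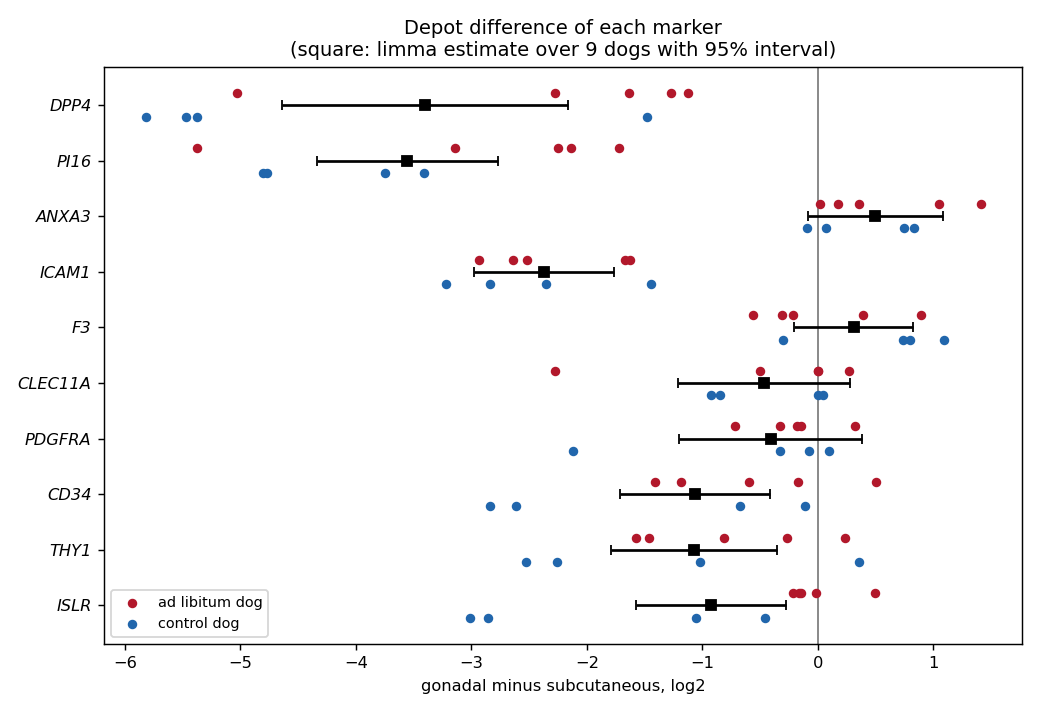
Gonadal minus subcutaneous log2 difference (x axis) for each gene (y axis). Points are single dogs, red for ad libitum and blue for control, and squares are limma estimates over 9 dogs with 95% intervals. DPP4, PI16 and ICAM1 have every dog left of 0, and the intervals of ANXA3, F3, CLEC11A and PDGFRA cross 0.

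Split by feeding group, 2 of 10 genes, PI16 and ICAM1, were called lower in gonadal fat of ad libitum dogs, where 7.19% of all tested probe sets were called and 4.36% were called lower. In control dogs 4 of 10 genes, DPP4, PI16, ICAM1 and ISLR, were called lower, where 2.92% were called and 1.82% were called lower. That count of 4 was 2 without the 4 arrays that stood apart, 1 without dog 1 or without dog 3, and 1, PI16, with the actin covariate. The median difference over the 10 genes was -0.54 in ad libitum dogs and -1.46 in control dogs, against 0.00 and 0.04 over all tested probe sets. These comparisons and the one over all dogs use the same arrays.

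To ask whether DPP4 and PI16 moved beyond 2 broader stromal markers, each was set against PDGFRA and THY1 within an array. PDGFRA and THY1 do not stand for the whole stroma. Of 14 general stromal genes, 8 were also called lower in gonadal fat, with a median of -0.86. The difference of the 2 log2 values of a pair was compared between arrays. Such a difference has no meaningful zero, because probe sets differ in brightness, so only its shift between groups is read. DPP4 minus PDGFRA averaged -2.25 ± 1.11 and -2.44 ± 1.56 in gonadal fat of ad libitum and control dogs, against -0.19 ± 1.63 and 1.49 ± 1.24 in subcutaneous fat of ad libitum and control dogs (SD). The gonadal value was lower in 9 of 9 dogs, by a mean of 2.89 ± 2.07 (SD; exact sign-flip permutation test, two-sided, p = 0.00391, the smallest that 9 dogs can give, and 0.0156 adjusted over 12 tests).

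PI16 minus PDGFRA averaged -0.61 ± 0.87 and -0.48 ± 0.48 in gonadal fat of ad libitum and control dogs, against 2.11 ± 0.59 and 3.10 ± 1.04 in subcutaneous fat of ad libitum and control dogs (SD). The shift was -3.10 ± 1.13 and lower in 9 of 9 dogs (exact permutation p = 0.00391, adjusted p = 0.0156). Against THY1, PI16 shifted by -2.45 ± 0.89 and was lower in 9 of 9 dogs (exact permutation p = 0.00391, adjusted p = 0.0156). DPP4 against THY1 shifted by -2.24 ± 2.23 and was lower in 8 of 9 dogs, which did not pass after adjustment (exact permutation p = 0.0195, adjusted p = 0.0586), and control dog 9 was the exception at 1.04. Without the 4 arrays that stood apart, 5 dogs kept both arrays and the shifts of DPP4 and PI16 against PDGFRA were -2.94 and -3.02. With 5 dogs the exact test cannot go below 0.0625.

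**Figure D3:**
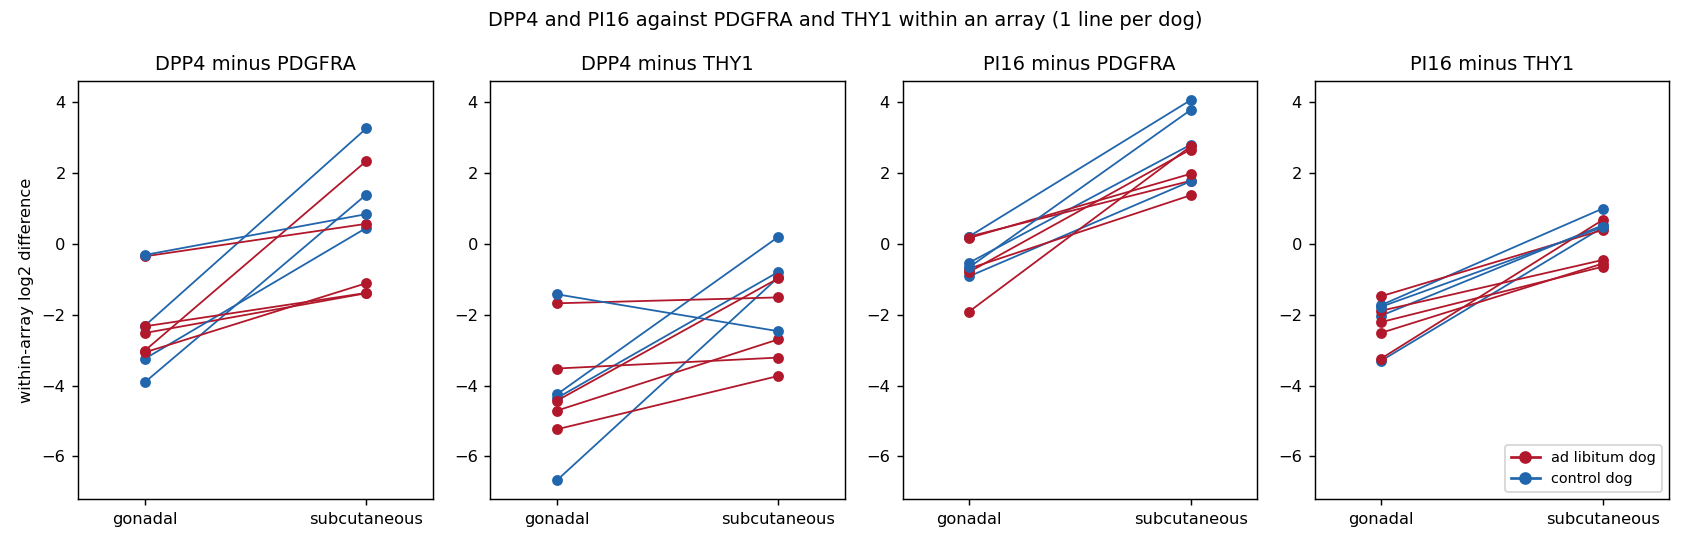
Within-array log2 difference (y axis) of DPP4 or PI16 against PDGFRA or THY1, in gonadal and subcutaneous fat (x axis). Each line is 1 dog, red for ad libitum and blue for control. Every dog has the lower value in gonadal fat except control dog 9 for DPP4 minus THY1.

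The second question was what ad libitum feeding did to the markers within a depot. In subcutaneous fat 1 of 10 genes, ISLR, was called lower in ad libitum dogs, by 3.24-fold, and 7 of 10 differences were negative. Over all tested probe sets 2.36% were called and 0.451% were called lower. The median difference was -0.66 over the 10 genes and 0.01 over all tested probe sets. In gonadal fat no gene was called.

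ISLR averaged 4.42 ± 0.53 in subcutaneous fat of ad libitum dogs (n = 5) and 6.11 ± 0.48 in that of control dogs (n = 4, SD), and no ad libitum array reached a control array. The ad libitum values lay near the floor of log2 4, which limits how well the size of the difference is known. Such a separation, with ad libitum dogs lower, was seen in 4.37% of tested probe sets. Its difference of -1.70 ± 0.43 lay just inside the threshold (limma adjusted p = 0.0498). With dog as a random block it lay just outside (adjusted p = 0.0508). It was also lost without any single dog other than dog 5 (highest adjusted p = 0.129), and without the 4 arrays that stood apart it was -1.54 (adjusted p = 0.211).

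DPP4 averaged 7.46 ± 1.87 in subcutaneous fat of ad libitum dogs (n = 5) and 9.69 ± 1.06 in that of control dogs (n = 4, SD). The difference of -2.22 ± 0.83 did not pass (limma unadjusted p = 0.0159, adjusted p = 0.129). The groups overlapped through ad libitum dog 5, whose value of 10.22 lay among those of the control dogs, and without that dog the difference was -2.91 and was called (adjusted p = 0.0227). With the 4 arrays that stood apart left out it was -1.42 (adjusted p = 0.546). The subcutaneous array of dog 5 had the highest mean level of T cell genes, 3.96, and of macrophage genes, 9.92. Of its T cell genes 3 of 7 reached log2 4. Among the subcutaneous arrays of ad libitum dogs it had the lowest adipocyte level, 10.40. Its general stromal and interstitial progenitor levels, 12.82 and 9.89, were the highest of those arrays. The part of these cells in the DPP4 value was not tested.

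PI16 averaged 9.77 ± 0.88 in subcutaneous fat of ad libitum dogs (n = 5) and 11.30 ± 0.40 in that of control dogs (n = 4, SD). The groups did not overlap, as in 4.37% of tested probe sets with ad libitum dogs lower. The PI16 difference of -1.53 ± 0.53 did not pass (limma unadjusted p = 0.00994, adjusted p = 0.11). CD34 and THY1 differed by -0.78 ± 0.44 and -0.80 ± 0.48, PDGFRA by -0.54 ± 0.53 and ICAM1 by -0.52 ± 0.40, and none of these passed (adjusted p = 0.283, 0.317, 0.553 and 0.446). F3, ANXA3 and CLEC11A lay on the other side of 0, at 0.53, 0.30 and 0.18, and did not pass either (adjusted p = 0.356, 0.664 and 0.859).

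In gonadal fat the feeding differences ran from -0.33 for ICAM1 to 0.51 for ANXA3. DPP4 differed by 0.05 ± 0.83 (95% interval -1.70 to 1.80) and PI16 by -0.27 ± 0.53 (95% interval -1.38 to 0.84). Among all tested probe sets limma called 0%, with 531 at an unadjusted p under 0.05. The intervals for DPP4 and PI16 are wide enough to hold changes of more than 1 log2 unit. Gonadal DPP4 values, 3.91 to 6.77, lay close to the floor of log2 4, which leaves little room for a decrease. The DPP4 interaction given next has the same limit.

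**Figure D4:**
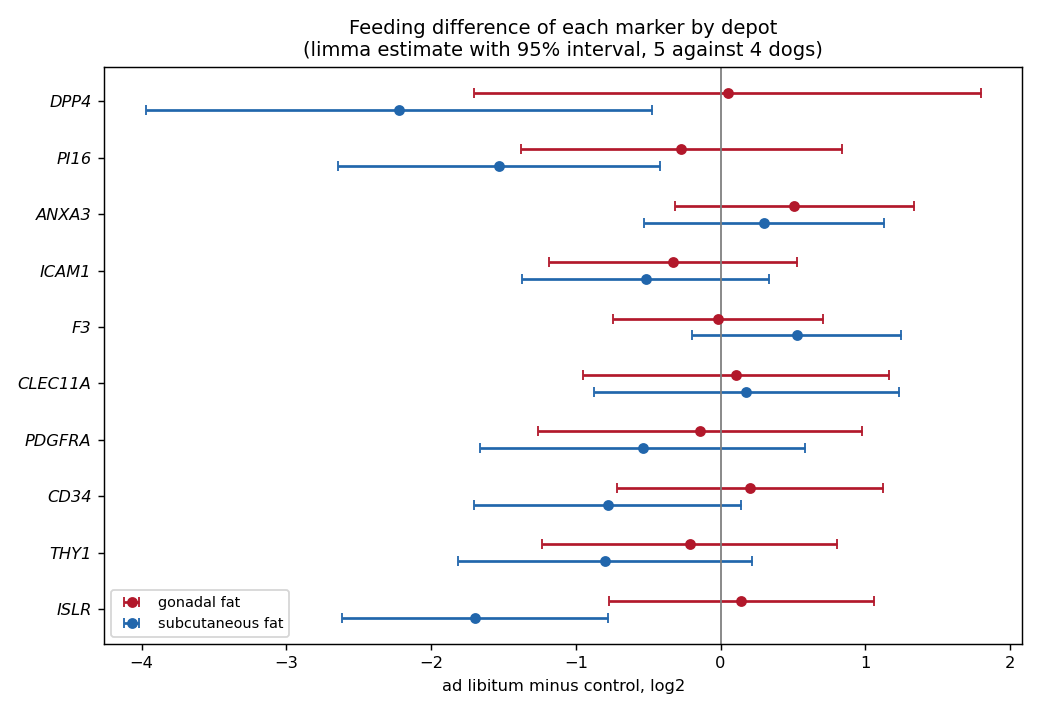
Ad libitum minus control log2 difference (x axis) for each gene (y axis), with gonadal fat in red above subcutaneous fat in blue. Points are limma estimates from 5 against 4 dogs and bars are 95% intervals. In subcutaneous fat the intervals of DPP4, PI16 and ISLR lie below 0, and ISLR is the one called after adjustment, while every gonadal interval includes 0.

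The difference between the depots in the feeding response was tested as an interaction. No gene was called, and 0% of all tested probe sets were called by limma, with 1344 at an unadjusted p under 0.05. ISLR had the smallest p of the 10, with a gonadal minus subcutaneous feeding response of 1.84 ± 0.61 (unadjusted p = 0.00824, adjusted p = 0.748). DPP4 and PI16 had 2.27 ± 1.17 and 1.26 ± 0.74 (adjusted p = 0.748 each). The feeding responses of these genes are therefore not shown to differ between the depots. Set against PDGFRA or THY1 within an array, DPP4 and PI16 did not pass for feeding in either depot, with shifts of -1.68 to -0.73 in subcutaneous fat (exact permutation of the feeding labels, adjusted p = 0.19 to 0.214) and of -0.13 to 0.26 in gonadal fat (adjusted p = 0.889 each).

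Lists of other markers placed the 10 genes among the cells of the tissue. Of 14 genes listed for mouse interstitial progenitors, 12 were tested, and over all dogs 8 were lower and 0 higher in gonadal fat, with a median of -1.26. Over all tested probe sets 8.84% were called lower and 7.76% higher. The microfibril genes FBN1 and MFAP5 differed by -1.77 ± 0.27 and -2.27 ± 0.39, and the growth factor binding protein gene IGFBP6 by -1.18 ± 0.21 (limma adjusted p = 0.000499, 0.00131 and 0.00172). Of 11 genes listed for committed preadipocytes 8 were tested, and 1, the chemokine gene CXCL14, was lower (-2.84 ± 0.52, adjusted p = 0.00211) and 0 higher, with a median of 0.05. DLK1 and GGT5 of this list reached log2 4 in 0 arrays. The tested ones averaged from 11.04 (SPARCL1) to 15.34 (FABP4), and which cells carried these transcripts was not tested. Of 7 genes listed with CD142-positive stroma 4 were tested, and 1, the prohormone-processing enzyme gene CPE, was higher (1.80 ± 0.30, adjusted p = 0.00113). The other tested members of both lists did not pass.

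Of 14 general stromal genes 14 were tested, and 8 were lower and 0 higher in gonadal fat, with a median of -0.86. The gelatinase gene MMP2 differed by -3.52 ± 0.43, the collagen gene COL1A1 by -1.87 ± 0.28 and FSTL1, a secreted glycoprotein gene, by -1.26 ± 0.23 (limma adjusted p = 7.98e-05, 0.000466 and 0.0019). The receptor gene PDGFRB and the proteoglycan gene DCN did not pass, at -0.61 ± 0.24 and -0.15 ± 0.11 (adjusted p = 0.0991 and 0.337). When the 4 arrays that stood apart were left out, 5 of 12 interstitial progenitor genes and 4 of 14 general stromal genes were called lower, and 0 and 1 were called higher. Their medians were then -1.02 and -0.77. The interstitial progenitor median was -0.26 in ad libitum dogs and -1.78 in control dogs, against -0.85 and -1.68 with all arrays. Fewer arrays make any call harder to reach. Lists are described by their counts and medians beside those of all tested probe sets. With all arrays, 8.84% of these were called lower and 7.76% higher, and their median was 0.02. These figures do not apply to the fit without the 4 arrays.

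Markers of other cell types moved with depot as well, again beside 8.84% of all tested probe sets called lower and 7.76% higher. Of 10 mesothelial genes 6 were tested, and 5 were higher in gonadal fat and 1 lower, among them the uroplakin genes UPK1B and UPK3B at 4.18 ± 0.38 and 3.41 ± 0.57 and the keratin gene KRT18 at 5.32 ± 0.85 (limma adjusted p = 6.63e-06, 0.0011 and 0.000833). The mean level of the mesothelial list was 5.88 to 8.10 and 5.94 to 7.85 in gonadal fat of ad libitum and control dogs, against 3.33 to 3.78 and 3.44 to 6.65 in subcutaneous fat of ad libitum and control dogs. Of 8 macrophage genes 8 were tested, and 5 were lower in gonadal fat, with the scavenger receptor gene CD68 at -2.00 ± 0.45 and the mannose receptor gene MRC1 at -1.31 ± 0.32 (adjusted p = 0.00697 and 0.0126). The mean macrophage level was 6.78 to 8.25 and 7.05 to 8.04 in gonadal fat of ad libitum and control dogs, against 7.80 to 9.92 and 7.92 to 9.33 in subcutaneous fat of ad libitum and control dogs. Of 5 tested mural-cell genes 3 were higher, RGS5, MYH11 and ACTA2, at 1.57 ± 0.40, 2.21 ± 0.65 and 1.05 ± 0.31 (adjusted p = 0.0147, 0.0285 and 0.0287). Of 9 endothelial, 11 adipocyte and 9 skeletal muscle genes none was called. Of 2 tested epithelial genes EPCAM was higher (6.68 ± 1.05, adjusted p = 0.000728), and the only tested gene of the ciliated list, TPPP3, was lower (-1.41 ± 0.39, adjusted p = 0.0223). TPPP3 reached log2 4 in 18 of 18 arrays and the other ciliated genes in at most 2, so its difference is not read as one of ciliated cells. T cell genes were near the floor, with CD3E at log2 4 or more in 2 of 18 arrays and 2 of 7 genes tested, of which none was called in all arrays and 1 was called lower without the 4 that stood apart. Among the other lists, leaving out those 4 arrays gave 2 macrophage genes lower, 2 mural-cell genes higher, and 5 mesothelial genes higher with 0 lower. The shares of 8.84% and 7.76% do not apply to that smaller fit. MSLN is not analysed here. The part of these cells in the differences of the 10 genes was not tested.

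For feeding in subcutaneous fat, 0 of 12 interstitial progenitor genes were called and their median was -0.99. Over all tested probe sets 2.36% were called and 0.451% were called lower, with a median of 0.01. Of 14 general stromal genes 1 was called lower, the matrix gene FBLN1 at -1.52 ± 0.39 (limma adjusted p = 0.0496), and 14 of 14 differences were negative with a median of -0.67. Adipocyte genes ran the other way, with 4 of 11 called higher and a median of 1.67, among them the fatty acid activating enzyme gene ACSL1 at 1.67 ± 0.36 and PCK1, an enzyme gene of glyceroneogenesis, at 2.36 ± 0.52 (adjusted p = 0.0293 and 0.0323). Without the 4 arrays that stood apart, none of the interstitial progenitor, general stromal or adipocyte genes was called. The 3′ minus 5′ signal of actin, a sign of RNA integrity, also had unequal group means, which were not tested. It was 3.31 ± 0.91 and 2.91 ± 0.91 in gonadal fat of ad libitum and control dogs, against 3.49 ± 0.77 and 4.75 ± 1.02 in subcutaneous fat of ad libitum and control dogs (SD). With this signal as a covariate the depot differences of DPP4, PI16 and ICAM1 over all dogs were -2.57, -3.89 and -2.05 and were called, and ISLR was not called for feeding (adjusted p = 0.151). In control dogs, where this signal differed most between depots, the covariate left PI16 called (-4.80, adjusted p = 0.00532), while DPP4, ICAM1 and ISLR lost their calls (adjusted p = 0.142, 0.0873 and 0.0717).

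**Figure D5:**
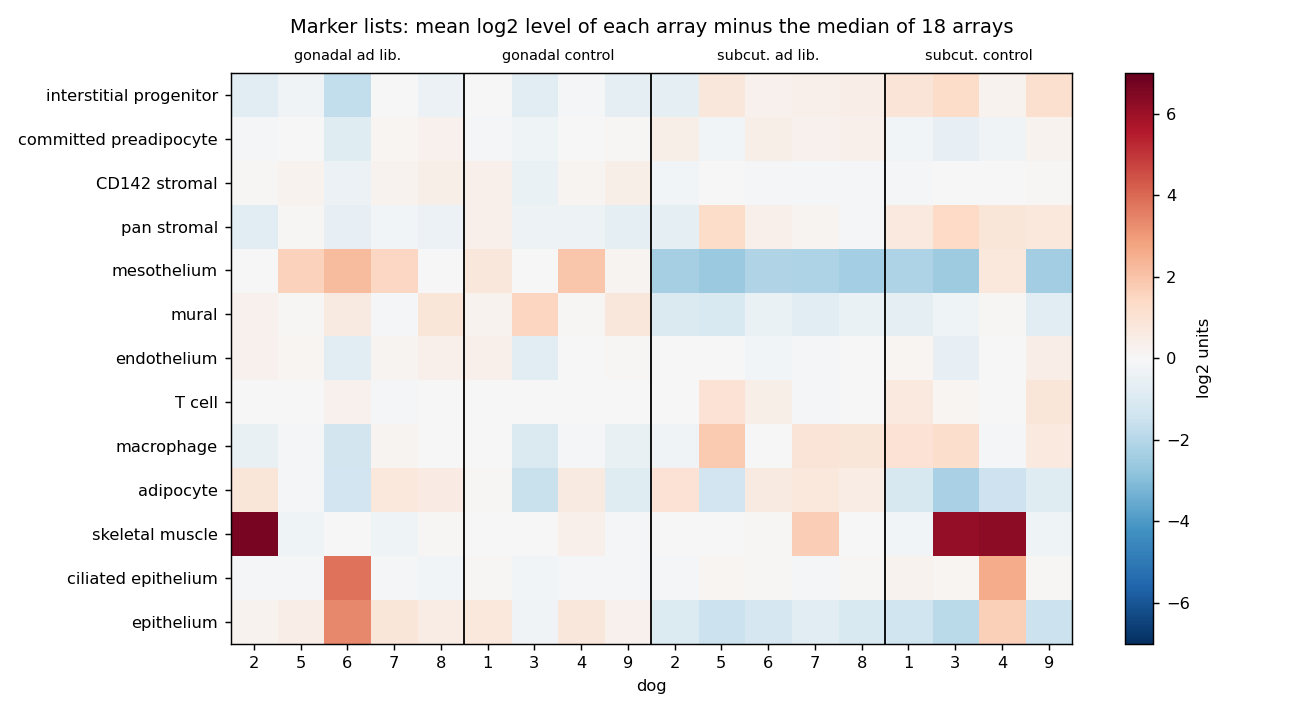
Mean log2 level of each marker list in each array minus the median of 18 arrays (colour, in log2 units), for lists (y axis) and dogs within groups (x axis). The muscle signal of gonadal ad libitum dog 2 and of subcutaneous control dogs 3 and 4 stands out, and mesothelial genes are high in gonadal arrays.

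Variation within the groups was described by Pearson r over 18 arrays after the 4 group means were removed. DPP4 and PI16 had an r of 0.15. PI16 followed CD34 (r = 0.77), THY1 (r = 0.72) and PDGFRA (r = 0.58), and DPP4 came closest to CLEC11A (r = 0.64) and ICAM1 (r = 0.62). CLEC11A lay near the floor, and its single high value, 7.00, came from the subcutaneous array of ad libitum dog 5, where DPP4 was 10.22. How far the r of this pair rests on that array was not tested. Among 8646 other genes, those most like DPP4 were PARP8 and ITGBL1 (r = 0.89 each), FAT4 and BID (r = 0.88 each) and CCN2 (r = 0.86). Those most like PI16 were ECM1 (r = 0.91), TIMP2 (r = 0.90), MEDAG (r = 0.87), and RETN and SESTD1 (r = 0.86 each). The 18 points come from 9 dogs and include the arrays that stood apart, and these values describe likeness without a test. Of the 5 genes most like PI16, ECM1, TIMP2 and RETN were also lower in gonadal fat (-1.96, -1.34 and -1.49, limma adjusted p = 0.000859, 0.00262 and 0.0108), and of those most like DPP4 BID was (-0.71, adjusted p = 0.00705).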

How the data were processed

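Total RNA of 18 samples was hybridised to a canine Affymetrix array. The submitters' processing notes name GCRMA, and the deposited values lie on a log scale. The sources used here do not give the authors' log base or the software version, and the range of 0.68 to 16.5 was read as log2. No intensities or counts were used, so the number of arrays limits the precision. Values were taken as deposited. Of 43035 probe sets, 111 array controls were left out, 29254 had 1 gene symbol, 439 several and 13231 none. The 21484 probe sets at log2 4 or more in at least 4 arrays were tested with limma 3.58.1 (R 4.3.3) in 1 fit of 4 group means with 14 residual degrees of freedom, for 6 comparisons, with Benjamini-Hochberg adjustment and a threshold of 0.05. Gene pairs were compared with exact permutation tests, 12 in all. The procedure was tested on simulated data.

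The animal numbers in the labels pair the 2 arrays of a dog. Same-dog deviations from the group means correlated at -0.05 to 0.53, over 0.1 in 6 of 9 dogs. The fit without this block is the main one, and the blocked value is given where it changes a call. Replicates are different dogs. Alternatives were other filters, scalings and moderation, dog blocks, leaving out each dog or 4 arrays, and actin signal as a covariate. Named were the 10 genes, the 5 most like DPP4 and PI16, up to 3 genes of each list with the smallest p, and general markers. The members and lists were chosen with earlier results of these data known, and the rule for arrays that stand apart (over 3 log2 units above their depot's median) was set with the data seen.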

Additional observations from a re-analysis of the deposited data

Results flagged for a closer look

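Single arrays far from the rest of their group were sought in 68 groups of values, 17 probe sets in 4 groups, and 5 were found, where about 1 in 20 groups is expected by chance. CLEC11A had 7.00 in the subcutaneous array of ad libitum dog 5, against 3.82 to 4.18 in the other ad libitum dogs. It also had 3.56 in the gonadal array of control dog 4, against 4.18 to 4.24 in the other control dogs. F3 had 11.99 in the subcutaneous array of ad libitum dog 2, against 10.80 to 11.14 in the others, and ISLR had 3.47 in the same array, against 4.58 to 4.73. The second probe set of THY1 had 6.61 in the gonadal array of ad libitum dog 6, against 8.16 to 8.61 in the others, and that array also held ciliated-epithelium transcripts.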

How the results depend on the processing

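DPP4, PI16 and ICAM1 were called lower in gonadal fat over all dogs in 19 of 19 alternatives, at -3.91 to -2.57, -3.89 to -3.08 and -2.54 to -1.91. CD34 was called in 12 of 19 (-1.38 to -0.85), THY1 in 10 of 19 (-1.43 to -0.87) and ISLR in 9 of 18 (-1.16 to -0.68), and ANXA3, F3, CLEC11A and PDGFRA in none. In control dogs alone PI16 was called in 20 of 20, ICAM1 in 17 of 20, DPP4 in 15 of 20 and ISLR in 10 of 19. ISLR for feeding in subcutaneous fat was called in 2 of 18, at -1.98 to -1.46. Of 1148 member values under alternatives 1034 kept direction and call, 58 lost a call, 4 gained one and 52 changed sign, and 0 of the sign changes concerned a called value. For gene pairs, 135 of 156 kept both.

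Without a filter on low values, 173 probe sets were called for feeding in subcutaneous fat, against 506 in the reported fit, and 275 for depot in control dogs, against 627. Of the 10 genes, 0 were then called for feeding and 3 for depot over all dogs. A filter at log2 6, which drops CLEC11A and ISLR, left 0 called for feeding, as did median centring and trended robust moderation. Quantile normalization gave 309 and 0. With only the arrays of a comparison the counts were 60 (0 of the 10 genes) for feeding in subcutaneous fat, 412 for depot in control dogs and 984 in ad libitum dogs. With dog as a random replicate block, 1346 were called for depot in control dogs and 2495 in ad libitum dogs, against 1545, and 0 of the 10 genes for feeding. The consensus correlation was 0.168. This block changed the calls of ISLR, CD34 and DPP4 given in the report and no other member call. The fixed dog block, which cannot estimate feeding within a depot, changed no member call. With the actin covariate the counts were 1 (0 of the 10 genes) for feeding in subcutaneous fat and 199 (1 of the 10 genes) for depot in control dogs, where DPP4, ICAM1 and ISLR lost their calls.

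When the 4 arrays that stood apart were left out, 5 probe sets (0 of the 10 genes) were called for feeding in subcutaneous fat and 341 (2 of the 10 genes) for depot in control dogs, and 3 of the 10 genes for depot over all dogs. The shifts of DPP4 against PDGFRA, PI16 against PDGFRA and PI16 against THY1 were -2.94, -3.02 and -2.18, with fewer dogs than the exact test needs (adjusted p = 0.25 each). The cause of the other changes was not tested.

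Leaving out each dog in turn gave 3 to 2703 called probe sets for feeding in subcutaneous fat (the highest without ad libitum dog 5, the lowest without control dog 1), 143 to 1050 for depot in control dogs (the lowest without control dog 3), 497 to 1620 in ad libitum dogs (the lowest without ad libitum dog 8), 2099 to 4209 over all dogs and 0 to 5 for the interaction. Of the 10 genes, 0 to 2 were called for feeding in subcutaneous fat, 1 to 4 for depot in control dogs and 3 to 6 for depot over all dogs. DPP4 for depot in control dogs was lost without control dog 1, 3 or 4 (adjusted p = 0.0836, 0.087 and 0.0676), and ICAM1 without dog 1 or 3 (adjusted p = 0.0652 and 0.0569). DPP4 against THY1 between depots ran from -2.65 to -1.80 and was called without control dog 9 (adjusted p = 0.0234).

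Sign changes were all of uncalled values. Setting aside the 4 arrays, feeding in gonadal fat was 0.44 for PI16, 0.089 for F3, 0.40 for PDGFRA and 0.089 for THY1. Depot in ad libitum dogs was 0.33 for PDGFRA and 0.34 for ISLR, depot over all dogs 0.081 for PDGFRA and the interaction 0.053 for F3. The gonadal feeding shifts of DPP4 against PDGFRA and THY1 were -0.36 and -0.043, and those of PI16 were 0.035 and 0.35. With the actin covariate, feeding in gonadal fat was -0.28 for DPP4 and 0.039 for PDGFRA, depot in control dogs 0.026 for CLEC11A, and the interaction -0.36 for ANXA3 and -0.35 for ICAM1. Feeding of DPP4 in gonadal fat was -0.028 with quantile normalization and -0.088 with the mean of both probe sets. That mean gave 0.0062 for F3 and 0.13 for PI16 against THY1 in gonadal fat, and centring gave -0.026 for F3 for depot in ad libitum dogs.

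Leaving out single dogs also moved uncalled values across 0. Feeding in subcutaneous fat ran from -0.088 to 0.56 for ANXA3, -0.41 to 0.39 for CLEC11A and -0.88 to 0.094 for PDGFRA. Feeding in gonadal fat ran from -0.29 to 0.59 for DPP4, -0.56 to 0.21 for PI16, -0.20 to 0.25 for F3, -0.055 to 0.32 for CLEC11A, -0.33 to 0.11 for PDGFRA, -0.0997 to 0.60 for CD34, -0.59 to 0.28 for THY1 and -0.27 to 0.47 for ISLR. Depot in ad libitum dogs ran from -0.17 to 0.19 for F3 and -0.13 to 0.045 for ISLR. The interaction ran from -0.063 to 0.53 for ICAM1, -0.26 to 0.37 for CLEC11A and -0.11 to 0.63 for PDGFRA. Gonadal feeding shifts ran from -0.30 to 0.90 for DPP4 against PDGFRA, -0.57 to 1.18 against THY1, -0.33 to 0.20 for PI16 against PDGFRA and -0.42 to 0.19 against THY1.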
